A study of Mus musculus with 18 samples.

Results

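The 42 genes described here make, store or break down fat in the liver. They were taken by symbol from a list of 43 genes of lipogenesis, triglyceride synthesis and lipid droplets, and all but *Cidea*, which is not analysed here, were among the 15052 genes measured. They fall into 6 roles: 8 genes of fatty acid synthesis, 7 of fatty acid elongation and desaturation, 4 regulators, 9 of acyl-CoA and triglyceride synthesis, 9 lipid droplet proteins and 5 of lipolysis. None of them lies within 20 Mb of *Apoe*.

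Liver RNA was sequenced from 18 C57BL/6J mice in 4 groups. Of the WT mice 4 were pair-fed and 5 EtOH-fed, and of the *Apoe* KO mice 5 were pair-fed and 4 EtOH-fed, the latter numbered 1, 2, 4 and 5. The knockout removed *Apoe* from the whole body, not from a single cell type, and all mice were 10 to 12 weeks old and carry the label female. After 5 days on a Lieber-DeCarli liquid diet, the EtOH-fed mice received that diet with 5% (v/v) ethanol for 10 days, then 5 g/kg ethanol by gavage on day 11, and were killed 9 h later. Pair-fed mice received the same diet without ethanol, in matched calories, and 9 g/kg dextrin-maltose by gavage. The comparisons ask how ethanol changed gene expression in each genotype, how the knockout changed it on each diet, and whether the ethanol response differed between genotypes. Each library is 1 mouse.

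The liver builds fatty acids from acetyl-CoA, lengthens and desaturates them, and joins them to glycerol as triglyceride. Triglyceride is kept in lipid droplets, whose coat proteins govern how much of it lipases can reach, and droplets accumulate in the hepatocytes of animals fed ethanol. The transcription factors encoded by *Srebf1* and *Mlxipl* drive the synthetic genes after feeding, and *Pparg* drives several droplet genes in fatty liver.

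Values are read counts that were scaled before deposit to a nearly common total (32267493 to 32292618 per mouse), so they are called scaled counts below. The reads behind them, estimated from the step between low values in 16 of the 18 mice, ranged from 5.60 to 52.2 M reads. Group medians were 14.9 M and 23.9 M in pair-fed WT and *Apoe* KO mice, and 39.5 M (3 of 5 mice) and 11.0 M in the EtOH-fed mice of these genotypes. *Apoe* itself stood at 611230 to 798431 scaled counts in WT mice and at 8586 to 108651 in *Apoe* KO mice. In 1 library the label and the data disagreed. EtOH-fed *Apoe* KO mouse 1 had 826 scaled counts of *Xist*, against 15227 to 30379 in the other mice, and 1077 of the Y-linked *Ddx3y*, against 2 to 118. Called results that use this mouse are therefore given with and without it.

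Log2 differences are between group means of log2(scaled count + 1), each with its standard error (SE). A gene was called when the adjusted p of limma's moderated test over all 15052 genes, two-sided, was under 0.05, and "rose" and "fell" are used only of called genes. In all, 30 of the 42 genes were called in at least 1 comparison, and *Scd1* in each of the 4 comparisons of 2 groups. The other 12 (*Acly*, *Acaca*, *Me1*, *Pklr*, *Elovl2*, *Elovl3*, *Acsl3*, *Gpam*, *Lpin2*, *Mogat1*, *Dgat1* and *Dgat2*) were called in none. Such a count was not made over all genes, of which 3488 were called with ethanol in *Apoe* KO alone.

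Ethanol lowered many of these genes in WT mice. Of the 42 genes, 15 fell and 2 rose, where 6.52% of all genes fell and 6.19% rose. The median log2 difference of the 42 was -0.24, beside -0.01 over all genes. Fallen genes included 4 of the 8 genes of fatty acid synthesis and 4 of the 7 of elongation and desaturation. The droplet gene *Cidec* and the regulator *Pparg* were the 2 that rose.

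In *Apoe* KO mice ethanol raised droplet genes. Of the 42 genes, 9 rose and 9 fell, where 16.3% of all genes rose and 6.92% fell, and 6 of the 9 that rose were among the 9 lipid droplet proteins. Without EtOH-fed *Apoe* KO mouse 1, 9 rose and 8 fell. In this comparison 4 of 5 stellate cell markers and 3 of 8 macrophage markers also rose, and their part in the result was not tested. The median log2 difference was -0.20, beside 0.13 over all genes. Scaling by median-of-ratios size factors moved the all-gene median of this comparison by 0.12, after which 9 of the 42 rose and 11 fell, and the share of all called genes that were higher went from 70.1% to 50.8%.

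The knockout on its own, in pair-fed mice, lowered 9 of the 42 genes and raised 0, where 0.864% of all genes fell and 0.87% rose. At the median the 42 genes differed by -0.28 (log2), beside -0.005 over all genes. Of the 9, 4 belong to elongation and desaturation. This comparison and that of ethanol in WT share the 4 pair-fed WT mice, so their values are not independent of each other. Without pair-fed WT mouse 2, 5 of the 42 fell.

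Between EtOH-fed *Apoe* KO and EtOH-fed WT mice, 4 of the 42 genes were higher and 5 lower, where 4.25% of all genes were higher and 0.445% lower. The 4 were *Plin2*, *Plin3*, *Cidec* and *Pnpla2*, and the 5 were *G0s2*, *Elovl6*, *Agpat2*, *Scd1* and *Srebf1*. Without EtOH-fed *Apoe* KO mouse 1, 3 were higher and 3 lower. The lower count was 2 without EtOH-fed WT mouse 1 and 3 without EtOH-fed *Apoe* KO mouse 2. With size factors, which moved the all-gene median by 0.13, 2 were higher and 6 lower, and the share of all called genes that were higher went from 90.5% to 75.1%.

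The ethanol response itself differed between genotypes for 6 of the 42 genes. The diet-by-genotype interaction was above 0 for *Acss2*, *Acacb*, *Plin2*, *Hilpda* and *Pnpla2* and below 0 for *Srebf1*, where 2.6% of all genes were called above 0 and 0.239% below. The median interaction of the 42 genes was 0.34, beside 0.11 over all genes, and 0.20 with size factors, which moved the all-gene median by 0.14. Without EtOH-fed *Apoe* KO mouse 1, 4 were called above 0 and 0 below. The macrophage markers *Cd68*, *Csf1r* and *Clec4f* and the stellate cell marker *Col1a1* were also called above 0. With size factors 3 were called above 0, and the share of all calls above 0 went from 91.6% to 77.8%.

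**Figure D1:**
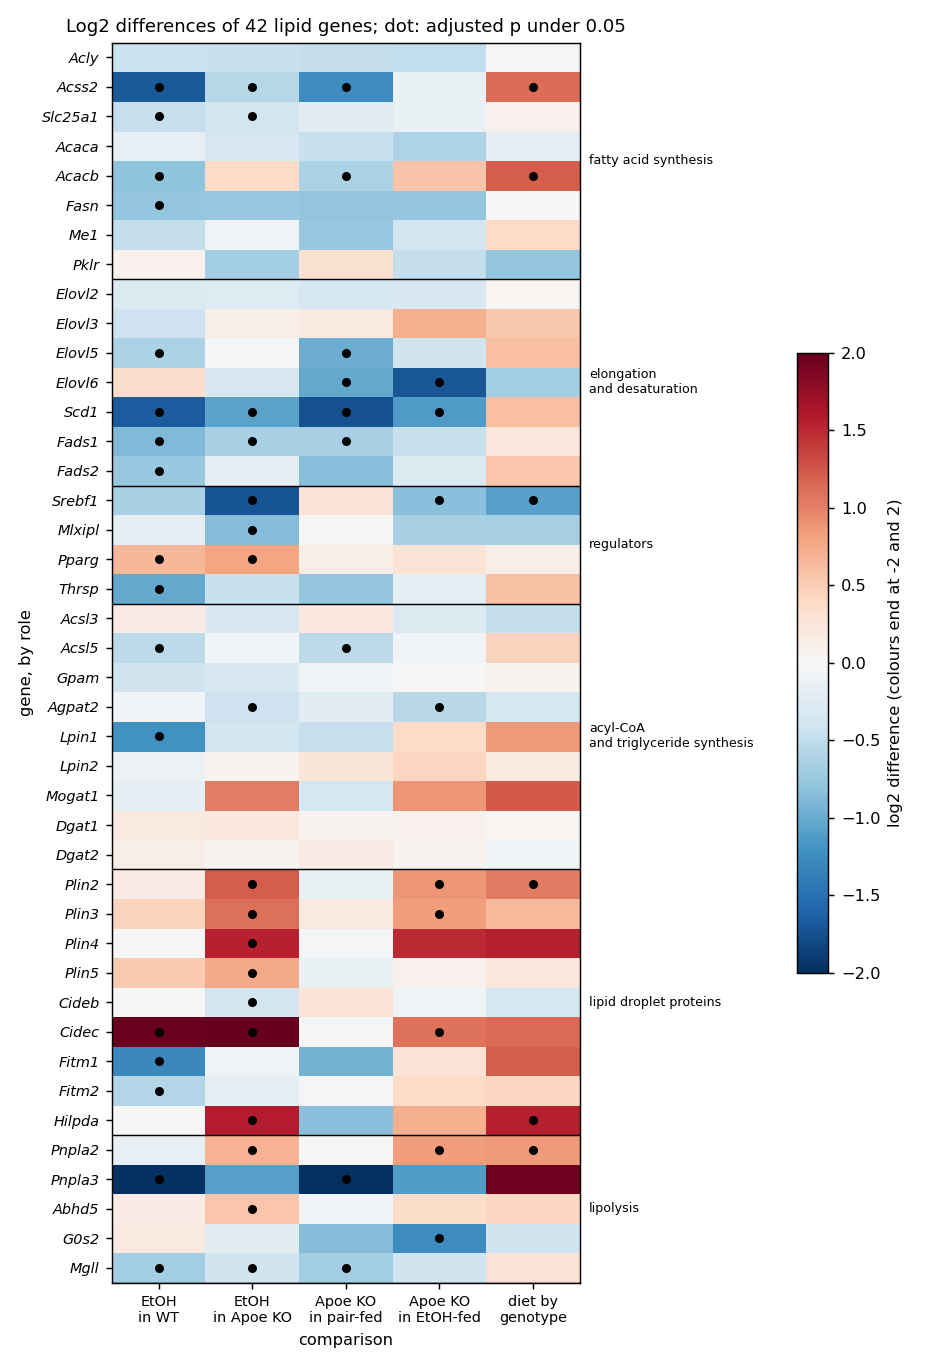
Log2 differences of the 42 genes (rows, grouped by role) in the 4 comparisons of 2 groups and the diet-by-genotype interaction (columns), as colours that end at -2 and 2, with a black dot where the adjusted p was under 0.05. In fatty acid synthesis, dots on blue mark 4 of 8 genes in the column of ethanol in WT and 2 of 8 in that of the knockout in pair-fed mice, in elongation and desaturation they mark 4 of 7 in each, and dots on red gather among the droplet proteins in the column of ethanol in *Apoe* KO.

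Promoter sequences are given for 4 of the genes on which these comparisons turn: *Pnpla3* and *Elovl5*, with 2 of the lowest adjusted p-values of the knockout in pair-fed mice, and *Plin2* and *Plin3*, with the 2 lowest in EtOH-fed mice. *Acss2*, with an adjusted p between those of *Pnpla3* and *Elovl5* in pair-fed mice, is not shown. Each sequence is the 250 bases before the RefSeq start on GRCm38.p6, 5′ to 3′ on the gene's strand. Capitals mark matches, on either strand, to CCAAT (read ATTGG on the other strand) and to the E-box CACGTG, of which the *Plin2* copy runs across the start.
*Pnpla3*, chr15:84167566-84167815, plus strand: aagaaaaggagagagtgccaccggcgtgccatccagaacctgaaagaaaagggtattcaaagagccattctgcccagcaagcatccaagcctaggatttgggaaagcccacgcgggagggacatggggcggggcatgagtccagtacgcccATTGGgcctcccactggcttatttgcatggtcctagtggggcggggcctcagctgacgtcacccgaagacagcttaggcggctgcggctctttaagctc
*Elovl5*, chr9:77917115-77917364, plus strand: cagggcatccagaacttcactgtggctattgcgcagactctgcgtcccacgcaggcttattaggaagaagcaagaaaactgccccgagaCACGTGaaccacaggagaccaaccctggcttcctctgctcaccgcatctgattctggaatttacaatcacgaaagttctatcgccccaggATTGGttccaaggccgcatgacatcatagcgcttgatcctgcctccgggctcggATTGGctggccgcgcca
*Plin2*, chr4:86670060-86670309, minus strand: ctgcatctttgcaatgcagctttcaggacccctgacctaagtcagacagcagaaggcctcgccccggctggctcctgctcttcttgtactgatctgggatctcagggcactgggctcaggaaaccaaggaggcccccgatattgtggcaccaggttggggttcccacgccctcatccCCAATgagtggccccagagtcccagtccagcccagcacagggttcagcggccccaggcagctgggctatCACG
*Plin3*, chr17:56290512-56290761, minus strand: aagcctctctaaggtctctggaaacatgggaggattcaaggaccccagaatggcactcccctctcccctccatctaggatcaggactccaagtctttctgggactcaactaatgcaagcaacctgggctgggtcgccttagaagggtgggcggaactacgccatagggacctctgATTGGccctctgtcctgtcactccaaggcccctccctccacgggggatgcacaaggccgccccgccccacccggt

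In *Pnpla3* the CCAAT match began at position -99 from the start, in *Plin2* at -73 and in *Plin3* at -75. Over windows of 300 bases, 250 before and 50 after the start, CCAAT was found in 24 of the 52 promoters of 37 matched genes (46.2%) and in 37.4% of all 32851 promoters. The E-box was found in 6 of the 52 (11.5%) and in 7.15% of all. The sterol regulatory element TCACNCCAC was found in 1 of the 52 (1.92%) and in 1.24% of all. *Elovl3*, *Fads1*, *Scd1*, *Dgat1* and *Dgat2* were not matched.

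Among the genes of fatty acid synthesis, *Acss2*, which turns acetate into cytosolic acetyl-CoA, stood apart in pair-fed WT mice. Its scaled counts were 7180, 5925, 7936 and 5413 in pair-fed WT and 2457, 3071, 2595, 3508 and 2319 in pair-fed *Apoe* KO. WT mice given ethanol had 2040, 1964, 2454, 1769 and 2010, and EtOH-fed *Apoe* KO mice 2170, 1742, 1572 and 2007. Each pair-fed WT mouse was above all mice of the other groups, and the 2 EtOH-fed groups overlapped. Ethanol lowered *Acss2* by 1.68 (log2, SE 0.13, 3.21-fold, adjusted p = 1.06e-05) in WT and by 0.57 (SE 0.13, 1.48-fold, adjusted p = 0.00808, and 0.00697 without mouse 1) in *Apoe* KO. The knockout lowered it by 1.25 (SE 0.14, 2.37-fold, adjusted p = 0.000502) in pair-fed mice. The interaction of 1.11 (SE 0.19) had an adjusted p of 0.00571, and 0.00684 without EtOH-fed *Apoe* KO mouse 1.

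*Acacb*, the acetyl-CoA carboxylase of the mitochondrial surface, had ethanol differences of opposite sign in WT and *Apoe* KO. In pair-fed WT its scaled counts were 5221, 5268, 4895 and 3703, and in EtOH-fed WT 3121, 3455, 2952, 1623 and 2747. Pair-fed *Apoe* KO mice had 3401, 3480, 3088, 3201 and 2224, and EtOH-fed *Apoe* KO mice 5268, 4244, 3504 and 3330. The WT groups did not overlap, and 3 of the 4 EtOH-fed *Apoe* KO mice were above all pair-fed *Apoe* KO mice. *Acacb* fell by 0.81 (SE 0.19, adjusted p = 0.015) with ethanol in WT, while in *Apoe* KO the difference was 0.40 (SE 0.15, adjusted p = 0.0726). The interaction was 1.21 (SE 0.27, adjusted p = 0.0165, and 0.0297 without EtOH-fed *Apoe* KO mouse 1). With the knockout in pair-fed mice *Acacb* fell by 0.64 (SE 0.14, adjusted p = 0.0367), a call that was lost without pair-fed WT mouse 1 or 2 or pair-fed *Apoe* KO mouse 1, 3 or 4 (adjusted p up to 0.131) and with all 4 groups in the fit (adjusted p = 0.0802). In WT the ethanol call was lost without pair-fed WT mouse 2 (adjusted p = 0.0517).

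*Fasn*, the fatty acid synthase, had scaled counts of 16555, 15487, 17610 and 9320 in pair-fed WT and 8250, 14189, 5440, 7810 and 8018 in pair-fed *Apoe* KO. EtOH-fed WT mice had 6740, 12049, 6641, 10063 and 7696, and EtOH-fed *Apoe* KO mice 3979, 2685, 7696 and 7090. Pair-fed WT mouse 4 lay among the mice of the other groups. *Fasn* fell by 0.77 (SE 0.21, adjusted p = 0.0288) with ethanol in WT, and its other 3 differences, from -0.78 to -0.76, had adjusted p-values from 0.0817 to 0.139. The call was lost without pair-fed WT mouse 1, 2 or 3 or EtOH-fed WT mouse 1 or 3 (adjusted p up to 0.0808) and with all 4 groups in the fit (adjusted p = 0.0751). *Slc25a1*, the carrier that brings citrate out of mitochondria, fell with ethanol by 0.46 (SE 0.12, adjusted p = 0.0214) in WT and by 0.38 (SE 0.11, adjusted p = 0.0252, and 0.00437 without mouse 1) in *Apoe* KO. The first call was lost without pair-fed WT mouse 2 or 3 (adjusted p up to 0.0747), and the second without pair-fed *Apoe* KO mouse 3 or 4 or EtOH-fed *Apoe* KO mouse 2, 4 or 5 (adjusted p up to 0.0721). The 8 genes differed by -0.77 to 0.58 between the EtOH-fed genotypes, and 0 of them were called.

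Among the genes of elongation and desaturation, *Scd1*, the desaturase that makes oleate and palmitoleate, had the highest level per kilobase of exon of the 42 genes in 3 of the 4 groups. At 55129 ± 7899 scaled counts per kb (SD, n = 4) in pair-fed WT it was followed by the lipase inhibitor *G0s2* with 12040. In EtOH-fed *Apoe* KO mice *Plin2* was highest, at 11900.5 scaled counts per kb beside 8185 of *Scd1*. *Scd1* scaled counts were 275028, 214946, 305205 and 283592 in pair-fed WT and 50931, 93189, 80163, 132619 and 65140 in pair-fed *Apoe* KO. They were 109067, 96846, 53899, 108533 and 68766 in EtOH-fed WT and 26867, 29797, 52246 and 51258 in EtOH-fed *Apoe* KO. Pair-fed WT mice were above all others, EtOH-fed *Apoe* KO mice were below all EtOH-fed WT mice, and the 2 groups in between overlapped. Ethanol lowered *Scd1* by 1.67 (SE 0.22, 3.17-fold, adjusted p = 0.000511) in WT and by 1.06 (SE 0.26, 2.09-fold, adjusted p = 0.0109) in *Apoe* KO. The knockout lowered it by 1.74 (SE 0.24, 3.34-fold, adjusted p = 0.00213) in pair-fed mice and by 1.14 (SE 0.25, 2.20-fold, adjusted p = 0.0223) in EtOH-fed mice. The last call was lost without EtOH-fed *Apoe* KO mouse 1 (adjusted p = 0.0566) or 2 or EtOH-fed WT mouse 1 (adjusted p up to 0.0656), and the ethanol call in *Apoe* KO held without mouse 1 (adjusted p = 0.0348).

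*Elovl6*, which lengthens palmitate, separated the genotypes. Its scaled counts were 18670, 12334, 11265 and 9481 in pair-fed WT and 7325, 7725, 4198, 7717 and 4903 in pair-fed *Apoe* KO. EtOH-fed WT mice had 15120, 17207, 8889, 14329 and 31214, and EtOH-fed *Apoe* KO mice 3234, 3039, 8036 and 7182. All 9 WT mice were above all 9 *Apoe* KO mice. The knockout lowered *Elovl6* by 1.71 (SE 0.34, 3.27-fold, adjusted p = 0.0135) in EtOH-fed mice, with an adjusted p of 0.0398 without EtOH-fed *Apoe* KO mouse 1, and by 1.02 (SE 0.21, adjusted p = 0.0267) in pair-fed mice. The pair-fed call was lost without pair-fed WT mouse 1 or 2 (adjusted p up to 0.084) and when all 4 groups shared a fit (adjusted p = 0.0966). With ethanol it differed by 0.35 in WT and -0.34 in *Apoe* KO, neither of them called.

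*Elovl5*, an elongase of polyunsaturated fatty acids, had scaled counts of 25250, 25578, 28337 and 24312 in pair-fed WT and 11909, 13091, 14096, 15955 and 10381 in pair-fed *Apoe* KO. Those of EtOH-fed WT mice were 19857, 20424, 12690, 16669 and 14581, and those of EtOH-fed *Apoe* KO mice 11342, 15654, 10448 and 13442. Pair-fed WT mice were again above all others. *Elovl5* fell by 0.996 (log2, SE 0.12, 1.99-fold, adjusted p = 0.000809) with the knockout in pair-fed mice and by 0.64 (SE 0.14, adjusted p = 0.0114) with ethanol in WT. In *Apoe* KO the ethanol difference was -0.04 (SE 0.14, adjusted p = 0.857), and the interaction of 0.60 (SE 0.21) was not called (adjusted p = 0.133).

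*Fads1* and *Fads2* encode the desaturases of polyunsaturated fatty acid synthesis. *Fads1* fell with ethanol by 0.89 (SE 0.15, adjusted p = 0.00275) in WT and by 0.66 (SE 0.16, adjusted p = 0.0116, and 0.00958 without mouse 1) in *Apoe* KO. The knockout lowered it by 0.67 (SE 0.16, adjusted p = 0.0468) in pair-fed mice, a call lost without any of pair-fed WT mice 1 to 4 or pair-fed *Apoe* KO mice 1, 2 and 4 (adjusted p up to 0.117), with size factors (adjusted p = 0.0586), with a pseudocount of 0.1 (adjusted p = 0.0522) and with sample quality weights. *Fads2* fell by 0.75 (SE 0.21, adjusted p = 0.0355) with ethanol in WT, a call lost without pair-fed WT mouse 1, 2 or 3 or EtOH-fed WT mouse 3, 4 or 5 (adjusted p up to 0.085), with size factors (adjusted p = 0.0581), with all 4 groups in the fit (adjusted p = 0.0562) and with sample quality weights (adjusted p = 0.0601). *Elovl2* and *Elovl3*, elongases of long polyunsaturated and of long saturated fatty acids, were called in no comparison.

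**Figure D2:**
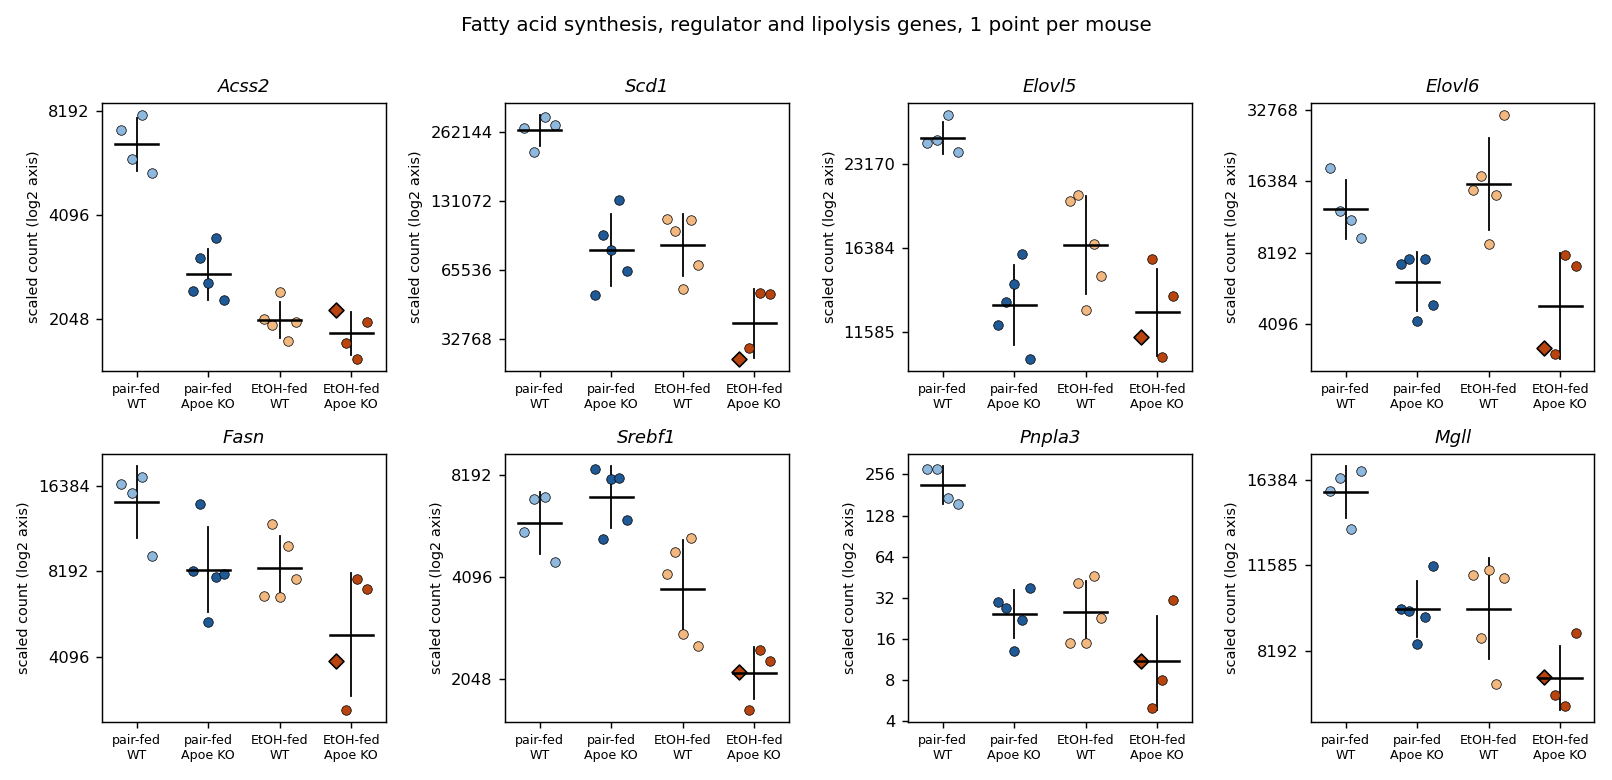
Scaled counts (log2 axis) of 8 genes of fatty acid synthesis, its regulation and lipolysis, 1 point per mouse in the 4 groups, with the group mean (bar) and SD (line) of log2(scaled count + 1). The diamond is EtOH-fed *Apoe* KO mouse 1. *Acss2*, *Scd1*, *Elovl5*, *Pnpla3* and *Mgll* show all pair-fed WT points above all other points, *Elovl6* shows all 9 WT points above all 9 *Apoe* KO points, and *Srebf1* has its 4 lowest points in EtOH-fed *Apoe* KO.

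Of the regulators, *Srebf1*, which encodes sterol regulatory element-binding protein, fell with ethanol in *Apoe* KO. Its scaled counts were 8557, 5295, 7970, 8054 and 6023 in pair-fed *Apoe* KO and 2142, 1661, 2497 and 2307 in EtOH-fed *Apoe* KO. In WT they were 5561, 6978, 7058 and 4529 in pair-fed mice and 4179, 4873, 2788, 5330 and 2556 in EtOH-fed mice. The *Apoe* KO groups were separate, and the WT groups overlapped. The fall in *Apoe* KO was 1.73 (SE 0.15, 3.32-fold, adjusted p = 1.44e-05, and 9.72e-05 without mouse 1), and the difference in WT was -0.65 (SE 0.22, adjusted p = 0.0645). *Srebf1* was lower by 0.83 (SE 0.21, adjusted p = 0.0405) in *Apoe* KO than in WT mice fed ethanol, and the interaction was -1.08 (SE 0.29, adjusted p = 0.0469). Without EtOH-fed *Apoe* KO mouse 1 neither passed (adjusted p = 0.0729 and 0.0631). The EtOH-fed call was also lost without EtOH-fed WT mouse 1, 2 or 4 or EtOH-fed *Apoe* KO mouse 2, 4 or 5 (adjusted p up to 0.102). The interaction was lost on leaving out any of 13 of the 18 mice (adjusted p up to 0.135) and with a pseudocount of 0.1 (adjusted p = 0.0523).

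*Mlxipl*, which encodes the carbohydrate-responsive factor ChREBP, fell with ethanol in *Apoe* KO by 0.87 (SE 0.17, adjusted p = 0.00282, and 0.00973 without mouse 1). Its scaled counts there went from 16898, 13947, 16600, 15249 and 15676 to 7041, 6034, 10931 and 11693, with no overlap. In WT its mean log2(scaled count + 1) was 13.9 in pair-fed and 13.7 in EtOH-fed mice. That difference and the *Mlxipl* interaction were not called. *Pparg*, a nuclear receptor of fat storage, rose with ethanol in both genotypes, by 0.66 (SE 0.14, adjusted p = 0.00886) in WT and by 0.79 (SE 0.16, adjusted p = 0.00321, and 0.0064 without mouse 1) in *Apoe* KO. Pair-fed mice of both genotypes had 395 to 632 scaled counts of *Pparg* and EtOH-fed mice 643 to 1294, so the diets did not overlap. *Thrsp*, a lipogenic factor that responds to thyroid hormone, fell by 1.03 (SE 0.22, 2.04-fold, adjusted p = 0.00955) with ethanol in WT. In *Apoe* KO the *Thrsp* difference was -0.44 (SE 0.31, adjusted p = 0.337), and its interaction of 0.59 was not called (adjusted p = 0.537).

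In acyl-CoA and triglyceride synthesis, the genes called in any comparison were *Acsl5*, *Lpin1* and *Agpat2*, each of them lower. *Acsl5*, an acyl-CoA synthetase, fell by 0.52 with ethanol in WT (SE 0.12, adjusted p = 0.0132) and by 0.52 with the knockout in pair-fed mice (SE 0.11, adjusted p = 0.0321). The second call was lost without pair-fed WT mouse 1, 2 or 4 or pair-fed *Apoe* KO mouse 1 or 3 (adjusted p up to 0.0894) and with size factors (adjusted p = 0.052). *Lpin1*, a phosphatidate phosphatase, fell by 1.22 (SE 0.26, 2.33-fold, adjusted p = 0.009) with ethanol in WT, from 16618, 6719, 8214 and 8708 scaled counts to 6116, 4311, 4153, 2485 and 4076, without overlap. *Agpat2*, which adds the second acyl chain, fell by 0.41 (SE 0.10, adjusted p = 0.00775, and 0.0223 without mouse 1) with ethanol in *Apoe* KO. It was also lower by 0.56 (SE 0.12, adjusted p = 0.0169) in *Apoe* KO than in WT mice fed ethanol, with an adjusted p of 0.0454 without EtOH-fed *Apoe* KO mouse 1 and of 0.0542 without EtOH-fed WT mouse 1.

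At the last step of triglyceride synthesis 0 genes were called. The diacylglycerol acyltransferase *Dgat2* had scaled counts from 16281 to 25078 over all 18 mice, and *Dgat1*, a second enzyme of the same step, had 755 to 1124. Differences of both lay between -0.08 and 0.21, with adjusted p-values from 0.189 to 0.948. *Gpam*, which adds the first acyl chain, differed with ethanol by -0.40 (SE 0.13, adjusted p = 0.0548) in WT and -0.33 (SE 0.13, adjusted p = 0.0948) in *Apoe* KO. *Mogat1*, a monoacylglycerol acyltransferase, had the lowest level per kilobase in 3 of the 4 groups, while in EtOH-fed *Apoe* KO mice *Pnpla3* was lower (8.88 against 29.2 scaled counts per kb). The *Mogat1* scaled counts of 7 to 57 rest on few reads.

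Among lipid droplet proteins, *Cidec*, which fuses small droplets into larger ones, had the largest rise of the 42 genes with ethanol in each genotype. Its scaled counts were 271, 140, 227 and 247 in pair-fed WT and 726, 1041, 882, 1029 and 635 in EtOH-fed WT. Pair-fed *Apoe* KO mice had 269, 169, 212, 222 and 182, and EtOH-fed *Apoe* KO mice 1734, 3380, 888 and 2042. The diets were separate in both genotypes, and EtOH-fed *Apoe* KO mouse 4 lay within the range of EtOH-fed WT mice. *Cidec* rose by 1.97 (SE 0.21, 3.93-fold, adjusted p = 7.82e-05) in WT and by 3.11 (SE 0.28, 8.64-fold, adjusted p = 1.82e-05, and 0.000118 without mouse 1) in *Apoe* KO. Its interaction was not called. The difference of 1.09 (SE 0.29, adjusted p = 0.0488) between the EtOH-fed genotypes did not hold without EtOH-fed *Apoe* KO mouse 1 (adjusted p = 0.0859). It was also lost with size factors (adjusted p = 0.119), with a pseudocount of 0.1 (adjusted p = 0.0533) and without EtOH-fed *Apoe* KO mouse 2 or 5 or any of the 5 EtOH-fed WT mice (adjusted p up to 0.123).

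*Plin2*, the droplet coat protein of hepatocytes, rose in EtOH-fed *Apoe* KO mice. Its scaled counts were 17010, 21734, 20396 and 20239 in pair-fed WT and 24904, 27712, 21644, 19056 and 18812 in EtOH-fed WT. Those of pair-fed *Apoe* KO mice were 17680, 15270, 22173, 22332 and 13342, and those of EtOH-fed *Apoe* KO mice 37337, 55765, 39444 and 34632. Each EtOH-fed *Apoe* KO mouse was above the other 14 mice, and the other 3 groups overlapped. With ethanol *Plin2* rose by 1.21 (SE 0.17, 2.31-fold, adjusted p = 0.000361, and 0.000985 without mouse 1) in *Apoe* KO. Between the EtOH-fed genotypes it was higher by 0.89 (SE 0.16, 1.85-fold, adjusted p = 0.00816, and 0.0156 without mouse 1) in *Apoe* KO. The interaction was 1.04 (SE 0.23, adjusted p = 0.0189, and 0.019 without mouse 1), and with size factors it was 0.90 (adjusted p = 0.0677).

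*Plin3*, a perilipin of small droplets, had scaled counts of 2161, 2724, 2307, 1737 and 1778 in EtOH-fed WT and 4501, 4137, 2956 and 3672 in EtOH-fed *Apoe* KO. In the pair-fed groups it ranged from 1193 to 2024 in WT and from 1540 to 1960 in *Apoe* KO, below every EtOH-fed *Apoe* KO mouse. *Plin3* rose with ethanol in *Apoe* KO by 1.10 (SE 0.13, 2.15-fold, adjusted p = 8.4e-05, and 0.000341 without mouse 1). In WT its mean log2(scaled count + 1) was 10.59 in pair-fed and 11.04 in EtOH-fed mice. That difference and the *Plin3* interaction were not called. *Plin3* was higher by 0.84 (SE 0.15, adjusted p = 0.00887, and 0.0259 without mouse 1) in *Apoe* KO than in WT mice fed ethanol. *Plin5*, which brings droplets to mitochondria, rose by 0.76 (SE 0.19, adjusted p = 0.011, and 0.035 without mouse 1) with ethanol in *Apoe* KO, and in WT its difference was 0.53 (SE 0.20, adjusted p = 0.102). The *Plin5* interaction was not called.

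*Plin4*, a perilipin best known from adipocytes, had scaled counts of 2444, 2208, 2260 and 673 in EtOH-fed *Apoe* KO and 1449, 864, 438, 219 and 655 in EtOH-fed WT. Its pair-fed counts were 576, 548, 547 and 765 in WT and 576, 318, 1069, 620 and 560 in *Apoe* KO. EtOH-fed *Apoe* KO mouse 5 lay in the range of the other groups, and the other 3 lay above all mice of those groups. *Plin4* rose by 1.53 (SE 0.37, 2.90-fold, adjusted p = 0.00931, and 0.0307 without mouse 1) with ethanol in *Apoe* KO. Its ethanol difference in WT and its interaction of 1.54 were not called. Between the EtOH-fed genotypes its difference of 1.49 (SE 0.48) was not called (adjusted p = 0.0972). That difference was called without EtOH-fed *Apoe* KO mouse 5 (adjusted p = 0.0381) and with all 4 groups in the fit (adjusted p = 0.0421).

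*Hilpda*, a droplet protein that inhibits adipose triglyceride lipase, had scaled counts of 76, 56, 81, 69 and 72 in pair-fed *Apoe* KO and 173, 217, 192 and 269 in EtOH-fed *Apoe* KO. In WT they were 190, 113, 92 and 131 in pair-fed mice and 103, 148, 208, 67 and 156 in EtOH-fed mice. Pair-fed *Apoe* KO mice were below all pair-fed WT and all EtOH-fed *Apoe* KO mice, and the WT groups overlapped. *Hilpda* rose by 1.56 (SE 0.21, 2.96-fold, adjusted p = 0.000227, and 0.000575 without mouse 1) with ethanol in *Apoe* KO, and the difference in WT was 0.003 (adjusted p = 0.995). The interaction of 1.56 (SE 0.38) had an adjusted p of 0.0308, and 0.0296 without EtOH-fed *Apoe* KO mouse 1. It was lost without pair-fed WT mouse 1, 2 or 4, pair-fed *Apoe* KO mouse 2, EtOH-fed WT mouse 1, or EtOH-fed *Apoe* KO mouse 4 or 5 (adjusted p up to 0.0734). In pair-fed mice the knockout difference was -0.84 (SE 0.24, adjusted p = 0.0876).

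The fat storage-inducing genes *Fitm1* and *Fitm2*, whose products help droplets bud from the endoplasmic reticulum, fell with ethanol in WT. *Fitm2* fell by 0.58 (SE 0.15, adjusted p = 0.0241) and *Fitm1*, from 248, 794, 544 and 654 scaled counts to 146, 164, 356, 149 and 327, by 1.28 (SE 0.35, adjusted p = 0.029). For both the groups overlapped. The *Fitm2* call was lost without pair-fed WT mouse 1 or 3 or EtOH-fed WT mouse 3 (adjusted p up to 0.0663), and that of *Fitm1* without pair-fed WT mouse 2, 3 or 4 or EtOH-fed WT mouse 1, 2 or 4 (adjusted p up to 0.0973). *Cideb*, which loads lipid into lipoprotein particles, fell by 0.37 (SE 0.11, adjusted p = 0.0258) with ethanol in *Apoe* KO. Its call was lost without EtOH-fed *Apoe* KO mouse 1 (adjusted p = 0.0509) or 5 or pair-fed *Apoe* KO mouse 1, 3 or 4 (adjusted p up to 0.0783) and with all 4 groups in the fit (adjusted p = 0.227), and its exons overlap those of *Nop9* on the other strand.

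**Figure D3:**
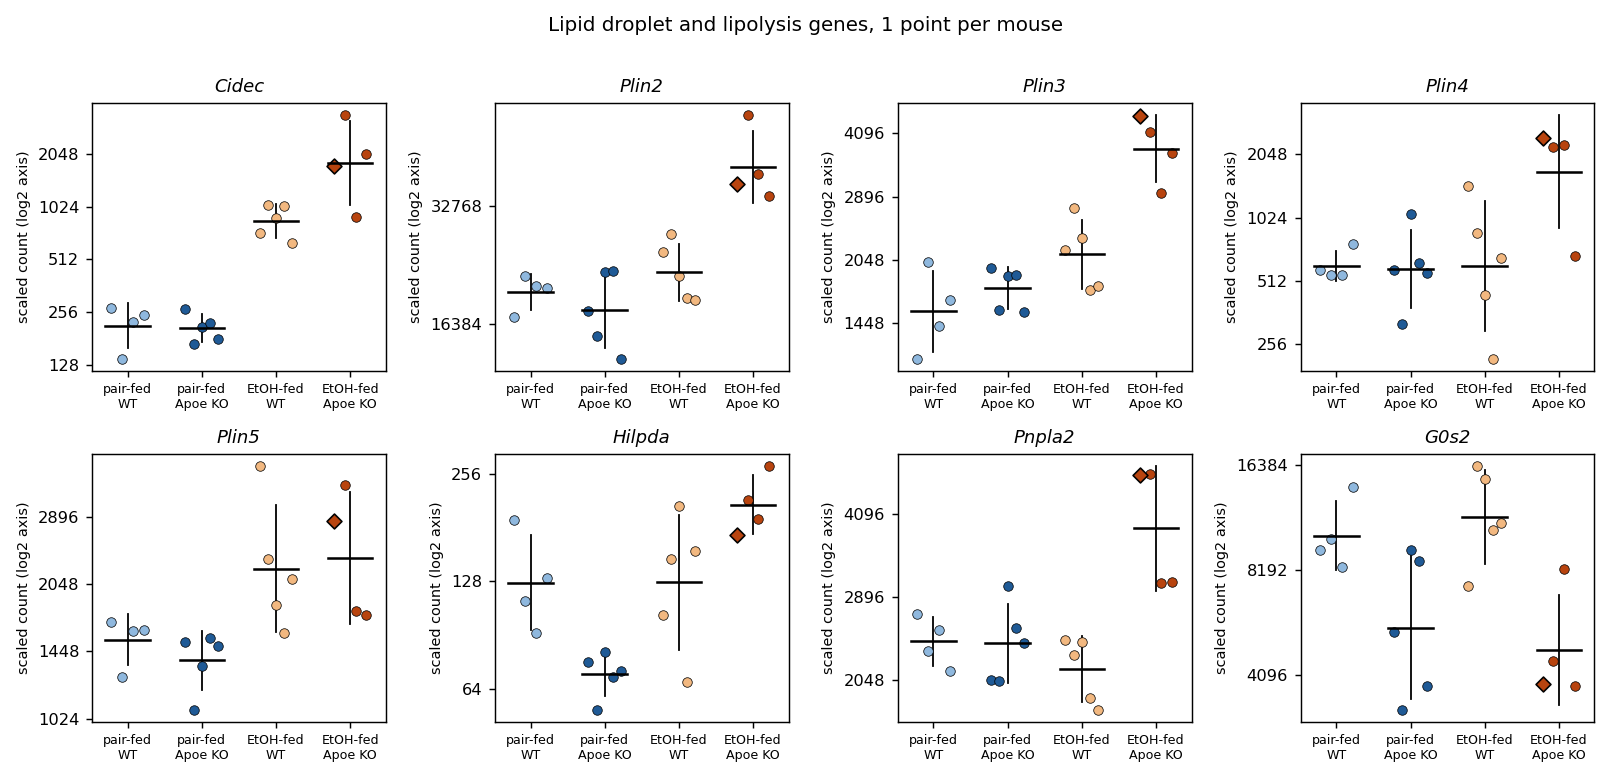
Scaled counts (log2 axis) of 6 lipid droplet genes and 2 lipolysis genes, 1 point per mouse in the 4 groups, with the group mean (bar) and SD (line) of log2(scaled count + 1). The diamond is EtOH-fed *Apoe* KO mouse 1. For *Plin2*, *Plin3* and *Pnpla2* the 4 EtOH-fed *Apoe* KO points sit above all others, *Cidec* points of both EtOH-fed groups sit above all pair-fed points, and *Plin4* has 1 EtOH-fed *Apoe* KO point, at 673, among the other groups.

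In lipolysis, *Pnpla2*, which encodes adipose triglyceride lipase, rose in EtOH-fed *Apoe* KO mice. Its scaled counts there were 4801, 4826, 3074 and 3084, against 2055, 2043, 3029, 2549 and 2397 in pair-fed *Apoe* KO. They were 2703, 2319, 2521 and 2132 in pair-fed WT and 2426, 2277, 2403, 1903 and 1815 in EtOH-fed WT. EtOH-fed *Apoe* KO mice were above all others, mice 4 and 5 by a small margin. *Pnpla2* rose by 0.69 (SE 0.16, adjusted p = 0.00839, and 0.027 without mouse 1) with ethanol in *Apoe* KO. It was higher by 0.84 (SE 0.16, adjusted p = 0.0106, and 0.0306 without mouse 1) in *Apoe* KO than in WT among EtOH-fed mice, a call lost with size factors (adjusted p = 0.0571). The interaction of 0.85 (SE 0.21, adjusted p = 0.0328) was lost with size factors (adjusted p = 0.129), without EtOH-fed *Apoe* KO mouse 1 (adjusted p = 0.0617) or 2, and without pair-fed WT mouse 1, 2 or 4, pair-fed *Apoe* KO mouse 1 or 2, or EtOH-fed WT mouse 4 (adjusted p up to 0.0635).

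*G0s2*, an inhibitor of that lipase, had scaled counts of 7381, 16241, 14897, 10654 and 11200 in EtOH-fed WT and 3864, 4492, 8274 and 3822 in EtOH-fed *Apoe* KO. Only EtOH-fed *Apoe* KO mouse 4 reached the EtOH-fed WT range. *G0s2* was lower by 1.26 (SE 0.25, 2.40-fold, adjusted p = 0.012, and 0.0351 without mouse 1) in the *Apoe* KO mice. In pair-fed mice the counts were 9352, 10070, 8378 and 14146 in WT and 5452, 3271, 9363, 8686 and 3828 in *Apoe* KO, a difference of -0.87 (SE 0.27) that was not called (adjusted p = 0.11). *Abhd5*, the activator of the lipase, rose by 0.55 (SE 0.15, adjusted p = 0.0188, and 0.0414 without mouse 1) with ethanol in *Apoe* KO, a call lost without EtOH-fed *Apoe* KO mouse 4 or 5 (adjusted p up to 0.0552).

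*Pnpla3*, a droplet-bound relative of that lipase, had the largest difference of the 42 genes both with ethanol in WT and with the knockout in pair-fed mice. Its scaled counts were 282, 280, 171 and 155 in pair-fed WT and 30, 27, 13, 22 and 38 in pair-fed *Apoe* KO. WT mice given ethanol had 15, 41, 15, 46 and 23, and EtOH-fed *Apoe* KO mice 11, 5, 8 and 31. All 4 pair-fed WT mice were above all 14 others, and the other 3 groups overlapped. *Pnpla3* fell by 3.04 (SE 0.37, 8.23-fold, adjusted p = 0.00025) with ethanol in WT and fell by 3.07 (SE 0.33, 8.41-fold, adjusted p = 0.000371) with the knockout in pair-fed mice. Its interaction of 1.95 (SE 0.66) was not called (adjusted p = 0.117) but was called with a pseudocount of 10 (adjusted p = 0.0225). The lowest of these values rest on few reads, since 1 read was worth 0.618 to 5.76 scaled counts.

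*Mgll*, the monoacylglycerol lipase of the final step, had scaled counts of 15656, 16506, 13427 and 16975 in pair-fed WT, above the 14 other mice, which ranged from 6554 to 11566. It fell by 0.68 (SE 0.15, adjusted p = 0.00892) with ethanol in WT and by 0.69 (SE 0.11, adjusted p = 0.00604) with the knockout in pair-fed mice. In *Apoe* KO it fell by 0.40 with ethanol (SE 0.11, adjusted p = 0.0187, and 0.0353 without mouse 1), a call lost without EtOH-fed *Apoe* KO mouse 4 (adjusted p = 0.0599).

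**Figure D4:**
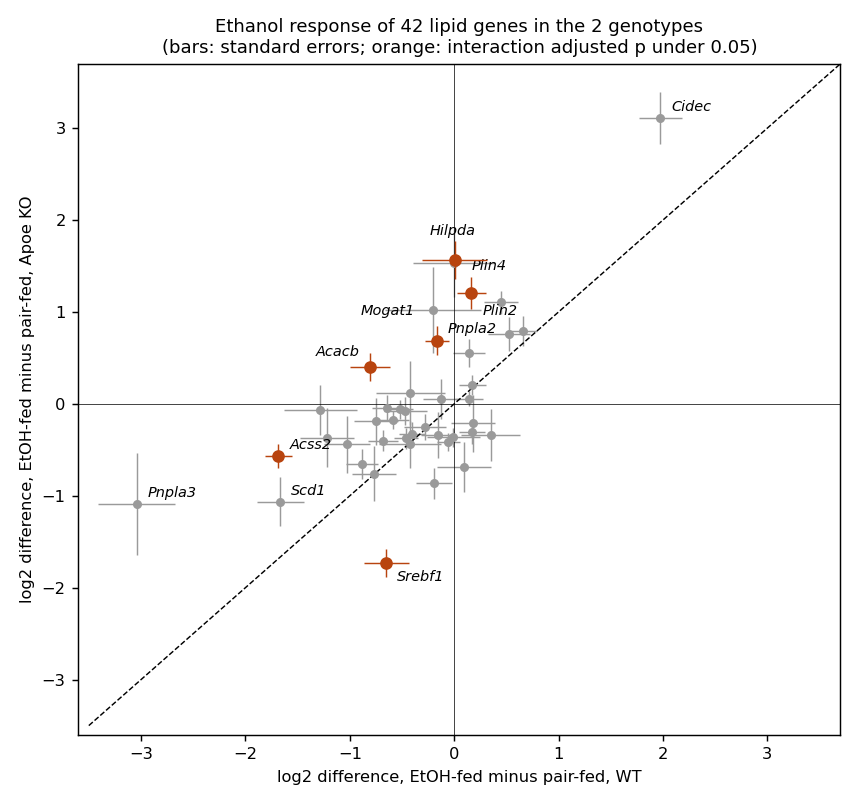
Log2 difference with ethanol of each of the 42 genes in WT (horizontal axis) and in *Apoe* KO (vertical axis), with standard errors as bars and the line of equal response dashed. The 6 genes with an interaction adjusted p under 0.05 are orange: *Acss2*, *Acacb*, *Plin2*, *Hilpda* and *Pnpla2* lie above the line and *Srebf1* lies below it.

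Other genes of the pathway, 58 of 59 listed, were read from the same fits. With ethanol 6 rose and 10 fell in WT, where 6.19% of all genes rose and 6.52% fell. In *Apoe* KO 13 rose and 11 fell, or 12 and 14 without EtOH-fed *Apoe* KO mouse 1, where 16.3% of all genes rose and 6.92% fell. With the knockout in pair-fed mice 1 rose and 3 fell, where 0.87% and 0.864% of all genes did. In EtOH-fed mice 3 were higher and 1 lower in *Apoe* KO, with and without mouse 1, where 4.25% and 0.445% of all genes were. *Insig1* and *Insig2*, which hold the *Srebf1* product in the endoplasmic reticulum, moved in opposite directions with ethanol in both genotypes. *Insig1* fell by 1.13 (SE 0.15, adjusted p = 0.000439) in WT and by 1.56 (SE 0.09, adjusted p = 7.12e-07, and 4.18e-06 without mouse 1) in *Apoe* KO. *Insig2* rose by 1.69 (SE 0.21, adjusted p = 0.000279) in WT and by 2.04 (SE 0.23, adjusted p = 8.4e-05, and 0.000361 without mouse 1) in *Apoe* KO. *Fabp1*, the fatty acid-binding protein of hepatocytes, fell with ethanol in WT by 1.53 (SE 0.19, adjusted p = 0.00025) and with the knockout in pair-fed mice by 0.93 (SE 0.18, adjusted p = 0.0191). In *Apoe* KO its scaled counts were 70820 to 113404 in pair-fed and 40273 to 49614 in EtOH-fed mice, without overlap. *Gpat3*, a glycerol-3-phosphate acyltransferase, rose by 1.29 (SE 0.15, adjusted p = 0.000173) with ethanol in WT. In *Apoe* KO its scaled counts were 461 to 1029 in pair-fed and 877 to 2657 in EtOH-fed mice.

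In the interaction, 2 of the 58 genes of this wider list were called above 0 and 0 below, with and without EtOH-fed *Apoe* KO mouse 1. Of all genes, 2.6% were called above 0 and 0.239% below. The 2 were *Scd2* and *G6pdx*. *Scd2*, a desaturase related to *Scd1*, had scaled counts of 720, 754, 1621 and 1015 in EtOH-fed *Apoe* KO, above the 14 other mice, which ranged from 255 to 666. It was higher by 1.43 (SE 0.26, 2.69-fold, adjusted p = 0.00816, and 0.0118 without mouse 1) in *Apoe* KO than in WT mice fed ethanol, the opposite direction to *Scd1*. *G6pdx*, which supplies NADPH, fell by 1.16 (SE 0.22, adjusted p = 0.00514) with ethanol in WT and rose by 0.74 (SE 0.22, adjusted p = 0.0255, and 0.048 without mouse 1) in *Apoe* KO. The *G6pdx* interaction was 1.90 (SE 0.31, adjusted p = 0.00478, and 0.00444 without mouse 1), and that of *Scd2* was 1.57 (SE 0.38, adjusted p = 0.0271, and 0.019 without mouse 1). *Lpl*, lipoprotein lipase, was higher by 1.16 (SE 0.23, adjusted p = 0.0135, and 0.0303 without mouse 1) in *Apoe* KO than in WT mice fed ethanol and by 0.61 (SE 0.14, adjusted p = 0.0455) in pair-fed mice.

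Markers of other liver cells moved with ethanol in *Apoe* KO mice, in the EtOH-fed comparison and in the interaction, and *Gpnmb* also in pair-fed mice. All 8 macrophage and Kupffer cell markers were higher in *Apoe* KO than in WT mice fed ethanol, where 4.25% of all genes were higher. All 8 calls held without EtOH-fed *Apoe* KO mouse 1. The call of *Marco* was lost without EtOH-fed *Apoe* KO mouse 5 (adjusted p = 0.0511). With all 4 groups in the fit *Marco* (adjusted p = 0.092) and *Timd4* (adjusted p = 0.0698) were not called. The summed value of the 8 was 7896 to 14396 against 3666 to 6338, of which *Clec4f* alone averaged 5870 and 2711. With ethanol in *Apoe* KO, 3 of the 8 rose, where 16.3% of all genes rose. They were *Cd68* (by 0.90, log2, adjusted p = 0.00105), *Csf1r* (by 0.77, adjusted p = 0.0132) and *Clec4f* (by 0.94, adjusted p = 0.00254). The summed value in pair-fed *Apoe* KO was 4536 to 9992. In WT 2 of the 8, *Csf1r* and *Clec4f*, fell with ethanol by 0.62 (adjusted p = 0.032) and 0.73 (adjusted p = 0.0177), where 6.52% of all genes fell. The summed value in pair-fed WT mice was 5836 to 10473. For both genes the WT groups overlapped. The *Csf1r* call in WT was lost without pair-fed WT mouse 2, 3 or 4 or EtOH-fed WT mouse 1 or 3 (adjusted p up to 0.103). It was also lost with sample quality weights (adjusted p = 0.0548). That of *Clec4f* was lost without pair-fed WT mouse 2 or 4 (adjusted p up to 0.0609). The interactions were 1.38 for *Cd68*, 1.39 for *Csf1r* and 1.67 for *Clec4f* (adjusted p from 0.00478 to 0.0117). In pair-fed mice 1 of the 8, *Gpnmb*, rose with the knockout by 2.03 (adjusted p = 0.0353), where 0.87% of all genes rose. That call was lost without pair-fed WT mouse 1, 2 or 4 or pair-fed *Apoe* KO mouse 2, 3 or 4 (adjusted p up to 0.115). The *Gpnmb* interaction of 0.33 was not called (adjusted p = 0.859).

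Of 5 stellate cell markers, 4 rose with ethanol in *Apoe* KO, where 16.3% of all genes rose. They were *Lrat* (by 0.69, adjusted p = 0.0206), *Dcn* (by 0.61, adjusted p = 0.00483), *Des* (by 1.15, adjusted p = 0.00182) and *Col1a1* (by 1.57, adjusted p = 0.000696). The list summed to 8701 to 11148 in pair-fed and 13923 to 23257 in EtOH-fed *Apoe* KO, and in WT to 8754 to 12647 and 9195 to 15463, where 0 were called. The largest part of this sum was *Dcn*, at 7583 to 10611 in EtOH-fed *Apoe* KO. *Col1a1* was also higher in *Apoe* KO than in WT mice fed ethanol (3.99-fold, adjusted p = 0.00216) and had an interaction of 2.08 (adjusted p = 0.0113). Each of these calls in macrophage and stellate cell markers held without EtOH-fed *Apoe* KO mouse 1 where the comparison included it. For *Lrat* the *Apoe* KO groups overlapped, and its call was lost without EtOH-fed *Apoe* KO mouse 4 or 5 (adjusted p up to 0.0653). Of 7 adipocyte markers, *Adipoq*, *Plin1*, *Lep*, *Retn* and *Cfd* are not analysed here. Of the other 2, *Fabp4* and *Lipe*, 0 were called between the EtOH-fed genotypes, and with ethanol they differed in opposite directions. *Fabp4* rose in WT (2.01-fold, adjusted p = 0.0213) and in *Apoe* KO (by 1.58 on the log2 scale, adjusted p = 0.000464, and 0.00077 without mouse 1). In WT the *Fabp4* groups overlapped, and the call was lost without pair-fed WT mouse 2 or 3 (adjusted p up to 0.0582). *Lipe* fell by 0.81 (adjusted p = 0.00302) in WT, and its difference of -0.32 in *Apoe* KO was not called (adjusted p = 0.146). The 5 hepatocyte markers summed to 2080921 to 2990713 in EtOH-fed *Apoe* KO and 1987732 to 3521245 in EtOH-fed WT, and 0 were called between these groups. Most of this sum was *Alb*, at 1567718 to 2413264 in EtOH-fed *Apoe* KO. With ethanol, *Cps1* rose by 1.12 (adjusted p = 0.0049) in WT and by 0.82 (adjusted p = 0.00392, and 0.0112 without mouse 1) in *Apoe* KO. The other 4 hepatocyte markers were not called with ethanol in either genotype. The part of these cells in the ethanol differences of the droplet genes in *Apoe* KO, in the interactions and in the EtOH-fed values of *Plin2*, *Plin3*, *Cidec*, *Pnpla2* and *Scd2* was not tested, and in whole liver fewer cells of a type cannot be told apart from less RNA per cell.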

How the data were processed

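Total liver RNA was extracted with TRIzol and polyA-selected for sequencing in 18 mice. Per the labels and the study's methods, the authors used Trimmomatic, HISAT2, featureCounts and DESeq2 with genome build GRCm38, and versions and the strand setting are not given in the sources used here. The deposited signal values are read counts per gene, which the authors brought to almost the same sum in each mouse and rounded in a step that is not stated. Columns of the authors' own comparison (mean, fold change, standard error, statistic, p-values and ranks) were not used. Samples were grouped by their agent and genotype labels.

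Of 195 repeated lines for 56 genes, only the first of each gene was kept, which left 15052 genes. Values were tested as log2(value + 1), a pseudocount that understates the change of low genes, with limma 3.58.1 in R 4.3.3 (trend on mean level, two-sided, Benjamini-Hochberg adjustment over all genes, threshold 0.05). Each comparison used the mice of its 2 groups, and the interaction used all 18. A count model was not run, since whole reads could not be recovered in 2 mice, and rounding limits the precision of low values. Scripts were tested on simulated data. Gene positions came from GENCODE M21, which placed 15040 genes, and promoters from RefSeq GRCm38.p6, where 37 of the 42 genes were matched. Without a stated strand setting, reads of overlapping genes cannot be told apart. Exons of *Acss2*, *Pklr*, *Acsl5*, *Srebf1*, *Acsl3* and *Cideb*, among others, overlap those of a neighbour in the table.

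The members and gene lists were chosen with earlier results of these data known. Named genes were all members called in at least 1 comparison, the 5 members with the largest difference in each comparison, and at most 5 called genes of the wider pathway per comparison. Alternatives were median-of-ratios size factors, pseudocounts of 0.1 and 10, a mean value of at least 50, all 4 groups in the fit, a replicate block, sample quality weights and each mouse left out.

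Same-numbered mice did not deviate together in every pair. Correlations of their deviations from the group means ranged from -0.22 to 0.10 for ethanol in WT and from -0.02 to 0.23 for the knockout in EtOH-fed mice, so the numbers were not treated as pairs.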

Additional observations from a re-analysis of the deposited data

Results flagged for a closer look

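Ethanol responses that differed between genotypes, by the interaction test, were those of *Acss2* (1.11 on the log2 scale), *Acacb* (1.21), *Plin2* (1.04), *Hilpda* (1.56), *Pnpla2* (0.85) and *Srebf1* (-1.08). Only *Acss2* and *Acacb* kept their call under every alternative and with each mouse left out. The calls of *Plin2* and *Pnpla2* were lost with size factors, and that of *Srebf1* with a pseudocount of 0.1. Leaving out 1 mouse lost the call of *Hilpda* for 7 of the 18 mice, of *Pnpla2* for 8 and of *Srebf1* for 13.

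A single mouse stood apart from the rest of its group in 8 of 180 sets of values, by Dixon's ratio of its gap to the group's range. Chance gives about 1 in 20, which is 9 here. Pair-fed *Apoe* KO mouse 5 was lowest for *Acacb* at 2224 scaled counts (ratio 0.733), mouse 4 of that group was highest for *Elovl3* at 605 (0.744), and mouse 2 was lowest for *Mogat1* at 7 (0.717). Pair-fed WT mouse 4 was highest for *Plin4* at 765 (0.846), and pair-fed WT mouse 2 was lowest for *Plin5* at 1266 (0.838). EtOH-fed *Apoe* KO mouse 5 was lowest for *Plin4* at 673 (0.921). EtOH-fed *Apoe* KO mouse 1 was lowest for *Apoe* at 12041 (0.855) and for *Xist* at 826 (0.917).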

How the results depend on the processing

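Of 65 gene results, 50 kept their side of the threshold under every alternative run with all mice, 43 with each mouse left out, and 0 reversed. Of the 59 called, 35 kept their call under both. Size factors gave 2 members higher in EtOH-fed *Apoe* KO than EtOH-fed WT mice in place of 4, and 3 positive interactions in place of 5. A pseudocount of 0.1 left 0 negative interactions of 1. Sample quality weights called 456 genes for the knockout in pair-fed mice, in place of 261. With the replicate block that count was 392, and in EtOH-fed mice it was 1083 of all genes in place of 706, with 7 members higher and 9 lower in place of 4 and 5. The numbers were not treated as pairs, although in EtOH-fed mice 3 of the 4 same-numbered pairs correlated over 0.1 (mean 0.135). With the block the calls of *Fasn*, *Fads2* and *Acsl5* with ethanol in WT, *Cideb* with ethanol in *Apoe* KO, and *Fads1* and *Acsl5* with the knockout in pair-fed mice were lost (adjusted p from 0.0501 to 0.0772). The cause of these shifts was not tested.

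With each mouse left out, members called for ethanol ranged from 2 to 3 higher and 10 to 16 lower in WT (all genes 1186 to 1904, of 1912), and from 8 to 9 higher and 7 to 10 lower in *Apoe* KO (all genes 2637 to 3320, of 3488). Members lower with the knockout in pair-fed mice ranged from 5 to 10 (all genes 73 to 670, of 261). In EtOH-fed mice 3 to 4 were higher and 2 to 5 lower (all genes 327 to 620, of 706). The interaction gave 3 to 5 positive and 0 to 1 negative (all genes 167 to 561, of 428). Estimated depth reached 5.60 M reads at its lowest, which limits low genes such as *Pnpla3* and *Mogat1*.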

Other observations

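Within the EtOH-fed *Apoe* KO group, mice 1 and 2 lay on one side of mice 4 and 5 for 23 of the 42 genes (54.8%), beside 42.7% of all 15052 genes. For 11 of them, *Elovl6*, *Scd1*, *Agpat2*, *Srebf1*, *Mlxipl*, *Acaca*, *Fasn*, *Acly*, *Thrsp*, *Abhd5* and *Dgat2*, mice 1 and 2 were the lower pair (26.2% of the 42, beside 32.6% of all genes). For the other 12, *Pnpla2*, *Plin3*, *Fads1*, *Elovl2*, *Acacb*, *Acsl3*, *Lpin2*, *Fads2*, *Fitm2*, *Gpam*, *Dgat1* and *Plin5*, they were the higher pair (28.6% of the 42, beside 10.1% of all genes). *Fasn*, for example, stood at 3979 and 2685 scaled counts in mice 1 and 2 and at 7696 and 7090 in mice 4 and 5, and *Elovl6* at 3234 and 3039 against 8036 and 7182. Estimated reads were 45.8 and 13.5 M in mice 1 and 2 and 7.88 and 8.39 M in mice 4 and 5. The shares come from scaled counts not divided by size factors, which were 1.03 and 0.998 in mice 1 and 2 and 1.15 and 1.10 in mice 4 and 5. The labels give no batch for these mice, and this grouping was seen in the values and has no test.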
